A study of Mus musculus with 60 samples.

Results

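The early response of wild-type mouse embryonic stem cells of the line 1A to 2i was followed by sequencing of polyadenylated RNA, and all genes with enough reads were read for their change over the first 12 h. The members are the 6 libraries of this line that the labels place at 12 h (3 biological replicates) and at 0 h (3 biological replicates), of 60 libraries in the series. The 12 h cells are wild type, grew in serum with LIF on gelatin, and received CHIR99021 at 3 µM and PD0325901 at 1 µM. The 0 h cells are the same line in serum with LIF without either inhibitor. The series holds no 12 h group without the inhibitors. The effect of the inhibitors and that of time or handling in culture therefore cannot be told apart. Both inhibitors were always given together, so their separate effects cannot be told apart either. A matching set of 6 libraries from V19, the other wild-type line of the study, was used only to show where 1A differed: 3 at 12 h under the same inhibitors and 3 at 0 h. The study also holds later times of both lines and PRC2 knockouts of 1A, of which only the later 1A wild-type times are described below. All 60 libraries enter the model, so they share its filter on low counts and its estimate of the spread. The labels call the replicates biological and say no more, so p-values measure the spread between these samples, which may in part be technical.

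Embryonic stem cells in serum with LIF move between a naive state, like the inner cell mass of the blastocyst, and states closer to the implanted epiblast. CHIR99021 inhibits the kinases GSK3A and GSK3B, which mark β-catenin for destruction, so that β-catenin can relieve or activate genes bound by TCF factors. PD0325901 inhibits MEK1 and MEK2, the kinases that activate ERK, through which FGF4 made by the cells themselves drives exit from the naive state. Together they hold cells in what is called the ground state. ERK also switches on its own inhibitors, so the RNA of these inhibitors is a common readout of the pathway.

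The 6 libraries held 3990421 to 6901840 counted reads, and 18876 to 20560 genes had a count in each. Mitochondrial genes took 0.929 to 1.20% of the reads. Levels are CPM, the count of a gene scaled to a common library size, changes are log2 values of 12 h over 0 h ± standard error with 3 libraries per group, and calls are genes with an adjusted p below 0.05. Adjusted p-values are from the quasi-likelihood test of edgeR, adjusted by Benjamini-Hochberg over the 15083 genes tested. The words rose and fell are used of called genes. All 7 defining markers of embryonic stem cells were present and summed to 5008 to 5369 CPM at 12 h, against 4487 to 4617 CPM at 0 h. Markers of other cell types were low. The 6 markers of primitive endoderm summed to 14.2 to 17.4 CPM at 12 h and 15.7 to 17.97 CPM at 0 h, and 5 mesendoderm markers, with T at 0, to 5.77 to 8.34 and 3.70 to 4.90 CPM. The 6 trophoblast markers, with Tpbpa at 0, summed to 20.1 to 25.1 CPM at 12 h and 12.5 to 17.2 CPM at 0 h, the 5 neural progenitor markers, with Neurog2 at 0, to 28.1 to 30.7 and 43.5 to 50.1 CPM, and the 7 fibroblast markers to 4.26 to 5.93 and 6.66 to 10.4 CPM. In RNA from whole cultures, fewer cells of a type and less RNA per cell cannot be told apart.

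A large share of the transcriptome had moved at 12 h. Of 15083 genes tested, 3014 (20%) rose and 3134 (20.8%) fell, so 40.8% were called. At least 2-fold, 772 (5.12%) rose and 952 (6.31%) fell. At least 4-fold, 161 (1.07%) rose and 272 (1.80%) fell, and at least 16-fold, 21 (0.139%) rose and 42 (0.278%) fell. Most calls were therefore below 2-fold, with a median absolute log2 change of 0.37 over all genes and a median change of 0.02. The 3 libraries at 12 h lay above all 3 at 0 h in 28.4% of genes and below them in 28.0%. These shares stand beside every statement below that groups did not overlap. For genes named by the largest log2 change or CPM difference, the rule required it.

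The change lay more in levels than in genes without any reads at one time. In terms of reads, 13.1% of the library changed place between the mean profiles at 12 h and 0 h, with 12.0 to 15.3% between the 9 single pairs of libraries. Between the 6 pairs of replicates the same measure gave 2.99 to 4.48%. No gene without a read in any library at 0 h reached 30 reads over the 3 libraries at 12 h, and 4 genes did the reverse. Among the 2369 genes over 100 CPM, 55.8% were called, and falls (36.8%) outnumbered rises (19.08%). Among the 1588 genes under 1 CPM, 11.5% were called, and only changes of at least 2-fold were. The standard error was 0.10 at the median for the first group and 0.75 for the second, so depth sets which changes could be called.

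**Figure D1:**
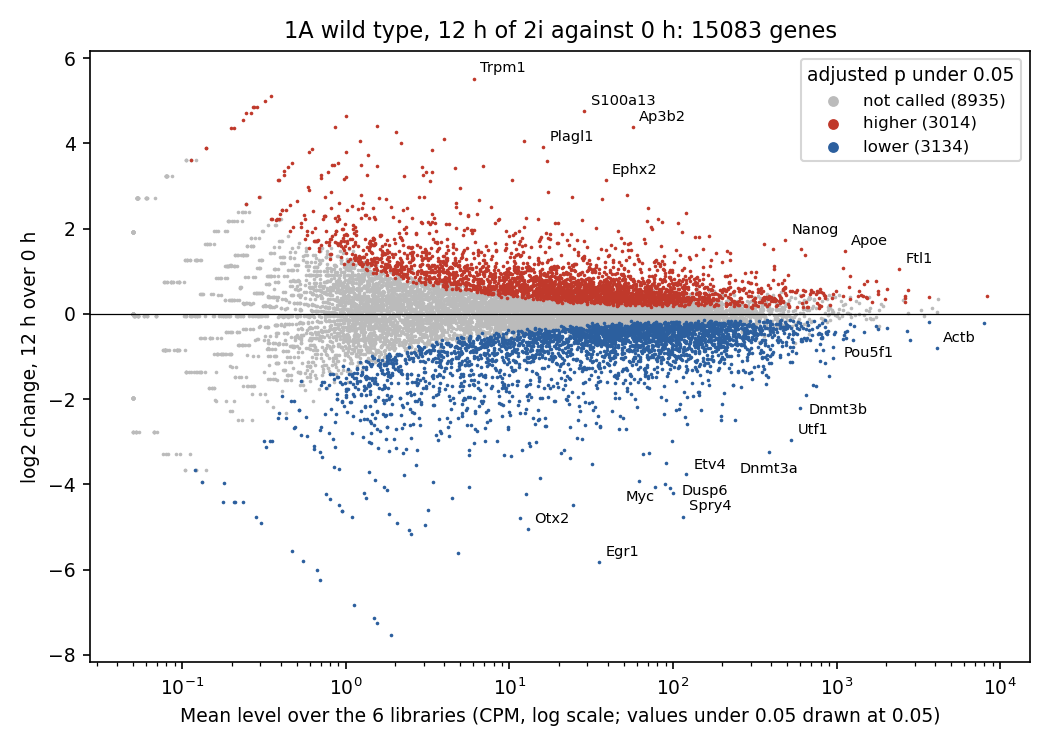
Each point is 1 gene. The horizontal axis gives the mean level over the 6 libraries in CPM on a log scale and the vertical axis the log2 change of 12 h over 0 h. Red points were called higher (3014), blue points lower (3134) and grey points were not called. Among the genes that the rule names, the deepest falls are those of Egr1 (-5.83), Otx2 (-5.06) and Spry4 (-4.76), and the largest rise is that of Trpm1 (5.52).

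The kinases that the inhibitors bind were read first at the RNA level. Gsk3a was at 52.1, 53.5 and 42.5 CPM at 12 h, against 59.7, 61.4 and 59.3 CPM at 0 h, and its change of -0.28 ± 0.12 was not called (adjusted p = 0.0579). The other GSK3 gene, Gsk3b, was at 53.01, 51.1 and 52.2 CPM at 12 h, against 56.7, 58.5 and 61.8 CPM at 0 h (-0.18 ± 0.12, adjusted p = 0.259). Neither GSK3 gene differed beyond the threshold, though Gsk3a passed it under 6 of the alternative settings, among them DESeq2 (adjusted p = 0.0342). Map2k1, which encodes MEK1, was at 131, 131 and 140.1 CPM at 12 h, against 123, 127 and 126 CPM at 0 h (0.10 ± 0.07, adjusted p = 0.289). Map2k2, which encodes MEK2, was at 132, 149.9 and 144 CPM at 12 h, against 161, 164 and 166 CPM at 0 h (-0.20 ± 0.12, adjusted p = 0.188), and passed the threshold with the 6 compared libraries fitted alone (adjusted p = 0.00516) and with an exon-length trend removed (adjusted p = 0.0338).

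Genes that ERK induces to restrain itself fell together. Of 15 feedback inhibitors 13 fell and 1 rose, with a median change of -1.35, against 20.8% lower and 20% higher and a median of 0.02 over all genes tested. The same shares over all genes stand beside the counts of every list below. Spry4, a Sprouty protein that blocks signalling from receptors to RAS and RAF, was at 8.05, 9.93 and 6.30 CPM at 12 h, against 213, 221 and 234 CPM at 0 h (-4.76 ± 0.14, adjusted p = 1.09e-32). Dusp6 (chr10:99098676-99103351 on GRCm39, as all gene positions here), the phosphatase that removes the activating phosphates from ERK in the cytoplasm, was at 10.9, 9.93 and 10.2 CPM at 12 h, against 183, 178 and 208 CPM at 0 h (-4.19 ± 0.12, adjusted p = 1.09e-32). For both genes every 12 h library lay far below every 0 h library. Dusp4, a phosphatase of the nucleus, was at 5.52, 5.93 and 3.66 CPM at 12 h, against 57.4, 61.7 and 58.5 CPM at 0 h (-3.53 ± 0.16). The Spred proteins bind RAS and RAF, and all 3 of their genes fell, Spred3 by the most (-2.50 ± 0.23), then Spred1 (-1.91 ± 0.12) and Spred2 (-1.48 ± 0.14). Spry2 was at 63.3, 68.4 and 70.1 CPM at 12 h, against 173, 165 and 176 CPM at 0 h, so it kept more of its RNA than Spry4. The member that rose was Dusp14 (0.47 ± 0.19, adjusted p = 0.0432), at 16.9, 18.9 and 16.7 CPM at 12 h, against 13.5, 10.8 and 14.0 CPM at 0 h. Its call was lost with RLE size factors, with a filter at a mean of 1 CPM and in 5 of the 6 omissions of 1 library (highest adjusted p = 0.202).

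The ETS factors of the PEA3 group, which ERK signalling induces in many tissues, moved the same way. Etv4 (chr11:101660573-101677963) was at 19.09, 15.5 and 14.8 CPM at 12 h, against 217, 231 and 220.0 CPM at 0 h (-3.75 ± 0.14, adjusted p = 4.33e-28). Etv1 (-2.14 ± 0.22) and Etv5 (-1.01 ± 0.09) also fell, with Etv5 at 133, 133 and 132 CPM at 12 h, against 249.6, 259.9 and 292 CPM at 0 h. In all, 5 of 9 ETS genes of the list fell and 1 rose (median -0.84). The one that rose was Elk1 (0.36 ± 0.14), a partner of serum response factor. The call of Elk1 was lost with no filter on low counts and without replicate 1 at 0 h, replicate 1 at 12 h or replicate 2 at 12 h (highest adjusted p = 0.162).

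Immediate early genes, which respond to growth factors within minutes, were split. Of 19 tested, 8 fell and 4 rose (median -0.24). Egr1, a zinc-finger factor, had the deepest fall under the rule for named genes, at 0.631, 1.44 and 1.63 CPM at 12 h, against 65.7, 69.9 and 73.2 CPM at 0 h (-5.83 ± 0.24, adjusted p = 1.73e-25). Phlda1 (-2.50 ± 0.15) and the AP-1 subunit Fos (-2.13 ± 0.34) fell as well, with Fos at only 1.10, 1.601 and 1.02 CPM at 12 h, against 5.62, 4.90 and 6.36 CPM at 0 h. Atf3, a factor also induced by stress, rose (1.23 ± 0.18), at 14.2, 12.0 and 18.9 CPM at 12 h, against 5.77, 7.02 and 6.10 CPM at 0 h. Of the AP-1 genes, Junb fell (-0.85 ± 0.11) and Jund rose (0.39 ± 0.15), while Jun was at -0.24 ± 0.12 (adjusted p = 0.0931). The call of Jund was lost in 4 of the 6 omissions of 1 library (highest adjusted p = 0.097). Genes of the kinase chain itself moved little. Of 17 RAS, RAF, MEK and ERK genes 5 fell and 1 rose (median -0.15), beside 20.8% lower and 20% higher over all genes tested. None of them changed 2-fold. Mapk3, which encodes ERK1, was at 0.05 ± 0.10 (adjusted p = 0.696).

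**Figure D2:**
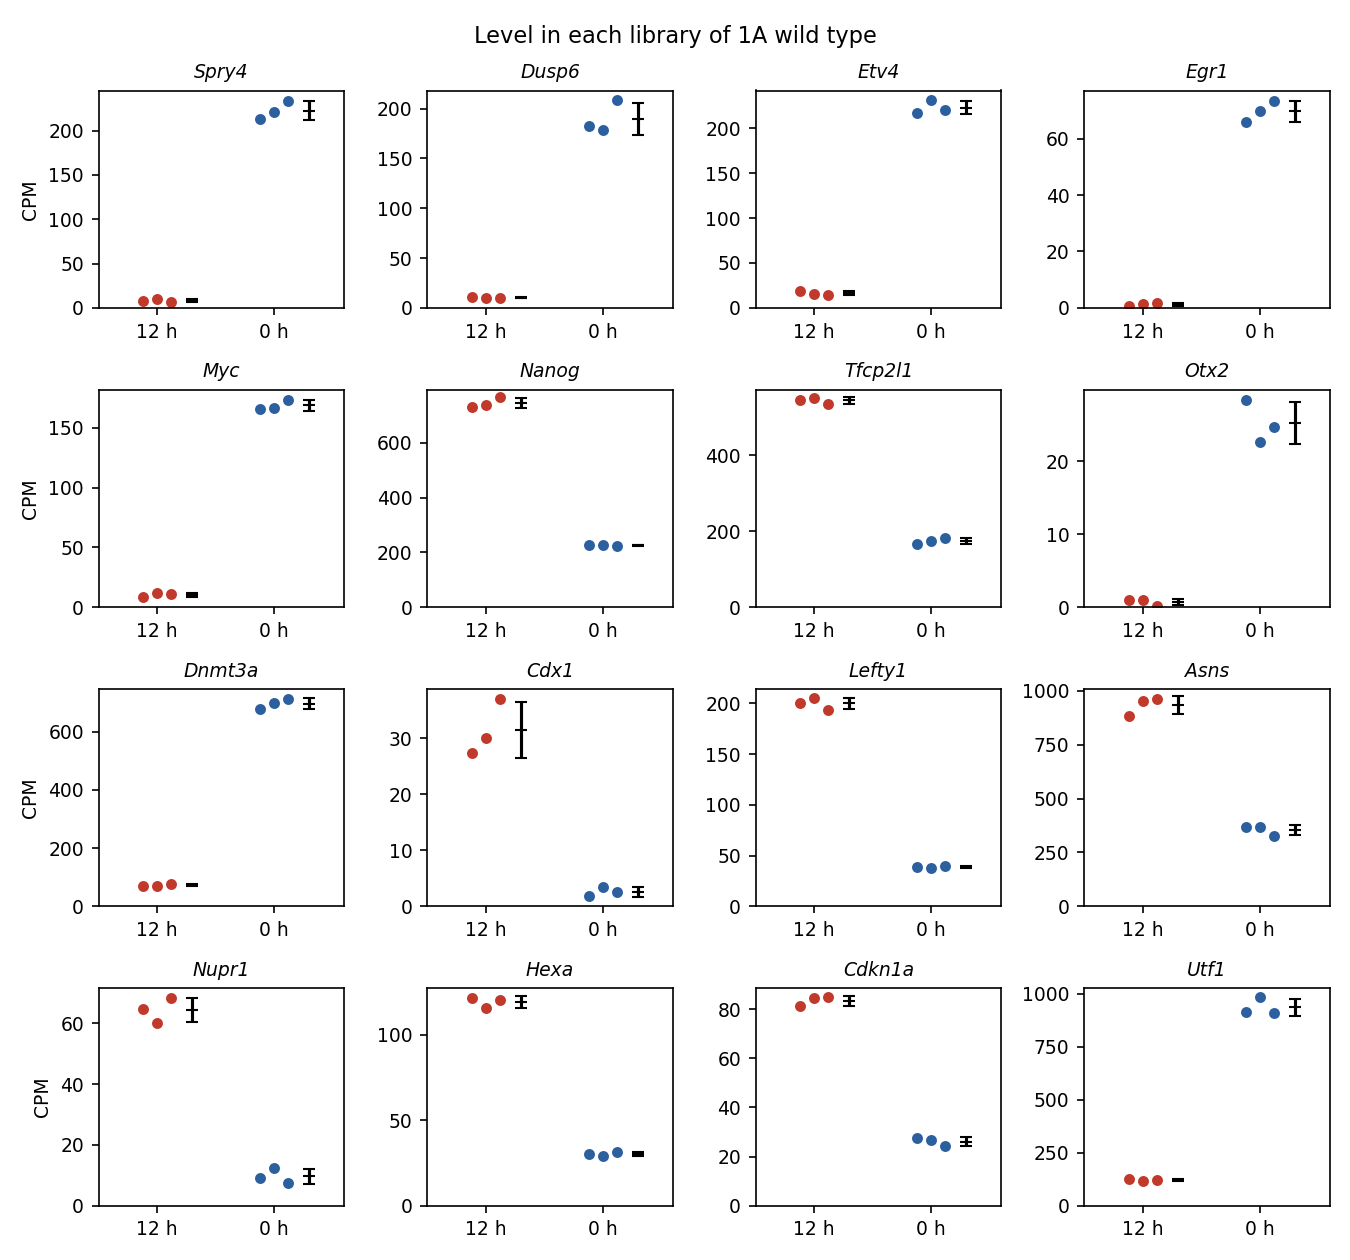
Level in CPM of 16 genes in each library of 1A wild type, with 12 h at the left and 0 h at the right of each panel. Points are single libraries and the bar beside them is the mean ± SD of 3 libraries. The genes were chosen with their values known, and some come from a rule that required groups without overlap. No panel has overlapping groups, beside 28.4% of all genes tested without overlap and higher and 28.0% lower. Spry4 lies between 6.30 and 9.93 CPM at 12 h, below the 0 h libraries at 213 to 234 CPM.

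Myc, the growth factor-induced transcription factor that drives ribosome production, was among the genes with large falls. Myc (chr15:61857190-61862210) was at 8.68, 11.7 and 11.4 CPM at 12 h, against 166, 167 and 174 CPM at 0 h (-3.998 ± 0.12, adjusted p = 1.09e-32). Mycn, its relative, was at 203, 194 and 192 CPM at 12 h, against 478, 524 and 519 CPM at 0 h (-1.37 ± 0.09). Of 12 genes of the Myc, Max and Mxd family 7 fell and none rose (median -0.47). They included the antagonists Mxd4 (-1.13 ± 0.45) and Mnt (-0.64 ± 0.14), which compete with Myc for its partner Max, and Max itself (-0.31 ± 0.08). The call of Mxd4 was lost in 5 of the 6 omissions of 1 library (highest adjusted p = 0.111).

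Most genes for making ribosomes fell, while none of the ribosomal protein genes listed fell. Of 30 ribosome biogenesis genes 20 fell and 2 rose (median -0.38), and none by 2-fold. Rrp1b (-0.98 ± 0.09), Tcof1 (-0.92 ± 0.11), which supports transcription of ribosomal DNA, and Polr1b (-0.75 ± 0.08), a subunit of RNA polymerase I, were among the larger falls. Nop56 rose (0.44 ± 0.06), at 486, 506 and 537 CPM at 12 h, against 373, 393 and 362 CPM at 0 h. Of 27 cytosolic ribosomal protein genes 20 rose and none fell (median 0.43). The count rests on single libraries, with 8 called higher without replicate 3 at 0 h, 9 without replicate 3 at 12 h and 13 without replicate 2 at 0 h. Rps12 was at 2075, 2107 and 2393 CPM at 12 h, against 1346, 1276 and 1198 CPM at 0 h (0.78 ± 0.20), and Rps20 at 1840.2, 1898 and 2052 CPM at 12 h, against 1181, 1178 and 1041 CPM at 0 h (0.77 ± 0.21). Rpl4 (0.40 ± 0.09), Rps3 (0.56 ± 0.18) and Rpl13a (0.59 ± 0.17) were among the 8 genes named for the largest gain in CPM. Ribosomal protein genes have many near-identical processed copies, so counts of single members are uncertain.

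The change also moved with the exon length of genes. Genes with up to 1 kb of summed exons had a median change of 0.41, with 29.4% called higher and 3.02% lower. Genes with more than 10 kb had a median of -0.17, with 11.1% higher and 29.2% lower. Ribosomal protein genes are short, with a median of 1062 bases and 12 of 27 under 1 kb. When the trend of level on exon length was removed from each library, an alternative chosen after seeing the data, the median of the ribosomal protein list was 0.15 and 12 members were called higher, while that of ribosome biogenesis stayed at -0.38. The V19 line had the same medians at both ends, 0.41 and -0.17. The part of exon length in the calls of ribosomal protein genes was not tested further.

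**Figure D3:**
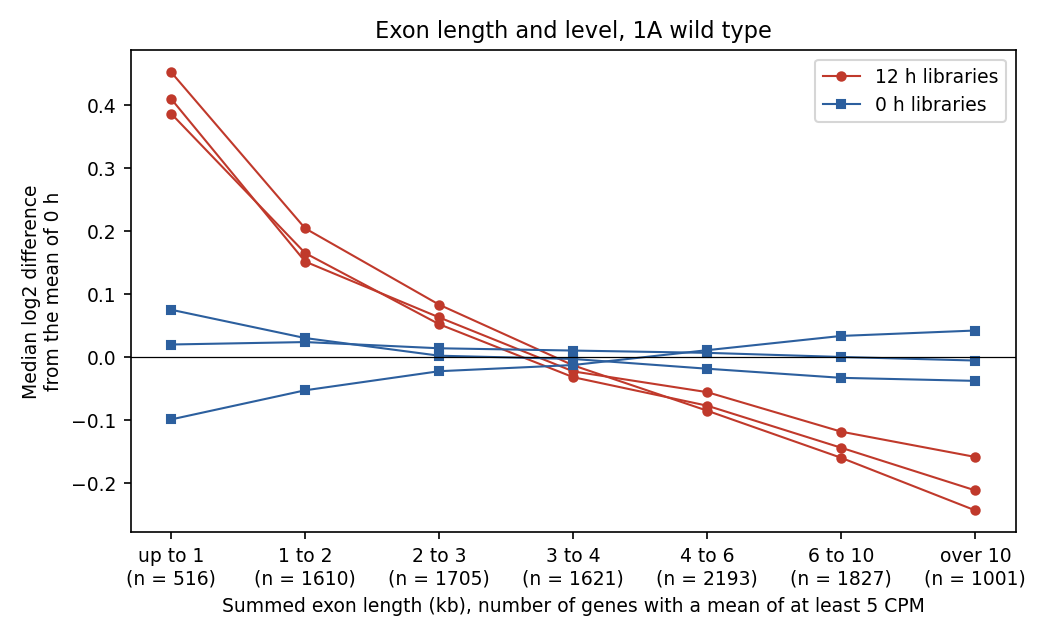
Median log2 difference of each library from the mean of the 3 libraries at 0 h, for genes grouped by summed exon length in kb, with the number of genes of at least 5 CPM under each class. Red lines are the 3 libraries at 12 h and blue lines those at 0 h. For the shortest class the 12 h libraries lie at 0.39 to 0.45 and the 0 h libraries at -0.10 to 0.07.

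Targets of Wnt and β-catenin did not move as a block. Of 18 tested, 6 rose and 5 fell (median 0.33), and the median was -0.04 with the 6 compared libraries fitted alone, which left 16 members tested. Cdx1, a homeobox factor of the posterior embryo, was at 27.3, 30.1 and 37.0 CPM at 12 h, against 1.78, 3.43 and 2.54 CPM at 0 h (3.60 ± 0.20, adjusted p = 7.6e-21). Sp5, a zinc-finger repressor induced directly by Wnt, was at 31.9, 29.0 and 35.8 CPM at 12 h, against 7.40, 8.17 and 5.85 CPM at 0 h (2.14 ± 0.16, adjusted p = 1.44e-16). Axin2, a scaffold of the destruction complex and a general readout of the pathway, was at 50.2, 42.4 and 49.0 CPM at 12 h, against 20.7, 21.9 and 26.2 CPM at 0 h (1.06 ± 0.14). In all 3 of these genes every 12 h library lay above every 0 h library. Cdx2 (2.13 ± 0.36), Tnfrsf19 (1.38 ± 0.18) and the inhibitor Nkd1 (0.99 ± 0.34) rose too. The members that fell were Lef1 (-3.38 ± 0.19), Ccnd1 (-1.27 ± 0.09), Notum (-0.99 ± 0.12), Tcf7 (-0.43 ± 0.12) and Kremen1 (-0.38 ± 0.16). The call of Kremen1 was lost in 4 of the 6 omissions of 1 library, and that of Nkd1 without replicate 3 at 0 h or replicate 1 at 12 h (highest adjusted p = 0.142 and 0.0634). Lef1 and Tcf7 encode the TCF factors that activate, and Tcf7l1, which encodes the TCF factor that represses pluripotency genes, fell as well, at 75.1, 63.3 and 63.6 CPM at 12 h, against 115, 114 and 131 CPM at 0 h (-0.83 ± 0.13). Of 14 genes of the destruction complex and its partners 7 fell and 1 rose, and β-catenin, Ctnnb1, fell by little (-0.14 ± 0.06). Its call was lost in 8 of 16 alternatives (highest adjusted p = 0.484), and with library totals alone 4 of the 14 fell. The 14 genes are long, with a median of 8344.5 bases of exons. Their median change of -0.17 was -0.08 with the length trend removed, where 7 were lower.

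Promoter sequence is given for members whose window holds a letter match to the TCF and LEF element, CTTTGAT on either strand. The windows are RefSeq promoters of 300 bases on GRCm38.p6, matched by symbol, while the counts were made on GRCm39. Of the 18 tested members 12 had 20 promoters in the table, and 2 of these promoters, of Sp5 and Tnfrsf19, held a match, against 3.73% of all 32851 promoters in the table. Capitals mark the match.
Sp5, chr2:70474793-70474851, plus strand: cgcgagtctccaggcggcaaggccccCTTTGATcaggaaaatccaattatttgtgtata
Tnfrsf19, chr14:61038157-61038215, minus strand: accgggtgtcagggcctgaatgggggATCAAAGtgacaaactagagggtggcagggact
A match describes letters and not binding, and both genes rose, beside 6 of the 18 members tested.

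Naive pluripotency factors were rearranged by 12 h. Of 20, 9 rose and 4 fell (median 0.27). Nanog (chr6:122684448-122691592), the homeobox factor that holds cells in self-renewal, was at 732, 738 and 766 CPM at 12 h, against 226, 228 and 223 CPM at 0 h (1.72 ± 0.09, adjusted p = 6.59e-23). Tfcp2l1, a target of LIF and of GSK3 inhibition, was at 547, 553 and 536 CPM at 12 h, against 167, 174 and 183 CPM at 0 h (1.64 ± 0.16). Prdm14, which represses FGF signalling and the DNA methyltransferases, was at 22.2, 21.6 and 26.8 CPM at 12 h, against 7.25, 6.04 and 7.63 CPM at 0 h (1.76 ± 0.12). In each of them the 3 replicates lay close together and the groups did not overlap. Tbx3 (1.75 ± 0.11), Dppa3 (1.497 ± 0.18), Tcl1 (1.15 ± 0.11), Fbxo15 (0.89 ± 0.09), Klf2 (0.87 ± 0.12) and Esrrb (0.62 ± 0.10) rose as well. Klf4 was at 154, 149 and 139.9 CPM at 12 h, against 118, 115 and 122 CPM at 0 h (0.32 ± 0.15, adjusted p = 0.0816). Zfp42, a common naive marker, was at 328, 336 and 337 CPM at 12 h, against 319, 298 and 296 CPM at 0 h (0.13 ± 0.06, adjusted p = 0.0757), and passed the threshold under 5 of the alternative settings. Gbx2 was at 50.8, 51.2 and 55.3 CPM at 12 h, against 143, 163 and 164 CPM at 0 h (-1.58 ± 0.10). Nr0b1 (-1.11 ± 0.09), Klf5 (-1.07 ± 0.13) and Sox15 (-0.81 ± 0.17) were the other members that fell.

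Core factors shared by naive and primed cells all fell, 11 of 11 (median -0.96). Pou5f1, the factor Oct4, was at 1223, 1274 and 1285 CPM at 12 h, against 1635, 1750.0 and 1668 CPM at 0 h (-0.42 ± 0.09, adjusted p = 0.000313). Sox2, its partner, was at 438, 445 and 439 CPM at 12 h, against 553, 544 and 553 CPM at 0 h (-0.32 ± 0.06, adjusted p = 5.56e-06). Both falls were smaller than those of most members. Utf1, a chromatin factor found mainly in pluripotent cells, was at 125, 118 and 120.0 CPM at 12 h, against 916, 984 and 912 CPM at 0 h (-2.95 ± 0.10, adjusted p = 1.26e-30). Dppa2 (-1.36 ± 0.11), Sall4 (-1.16 ± 0.09) and Zscan10 (-1.14 ± 0.14) fell between these extremes.

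Factors of the formative and primed epiblast fell furthest as a list, 15 of 17 with 1 higher and a median of -1.99. Otx2 (chr14:48894238-48905101), the homeobox factor that opens enhancers of the primed state, was at 0.947, 0.961 and 0.203 CPM at 12 h, against 28.4, 22.7 and 24.7 CPM at 0 h (-5.06 ± 0.28, adjusted p = 2.36e-21). Pou3f1, the POU factor Oct6, was at 8.52, 8.33 and 9.76 CPM at 12 h, against 147, 156 and 139 CPM at 0 h (-4.06 ± 0.16, adjusted p = 1.5e-27). Foxd3, a forkhead factor of the transition, was at 12.1, 14.6 and 14.6 CPM at 12 h, against 84.2, 87.6 and 96.1 CPM at 0 h (-2.69 ± 0.11). Zic2 (-1.99 ± 0.13), Sox3 (-1.73 ± 0.24), Grhl2 (-1.75 ± 0.11) and Fgf15 (-2.11 ± 0.24) fell too. Tead2 rose (0.52 ± 0.07). Fgf5, a usual marker of the primed state, was too low to be tested, at 0, 0.16 and 0 CPM at 12 h, against 1.04, 1.14 and 2.03 CPM at 0 h.

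Ligands and receptors of the pathways around these factors changed unevenly. The Nodal antagonists Lefty1 and Lefty2 rose: Lefty1 was at 200.4, 206 and 194 CPM at 12 h, against 38.5, 37.9 and 39.9 CPM at 0 h (2.37 ± 0.14, adjusted p = 1.15e-19), and Lefty2 at 67.4, 73.8 and 79.5 CPM at 12 h, against 18.7, 21.2 and 16.3 CPM at 0 h (1.96 ± 0.13). Nodal itself was at 73.2, 73.8 and 67.3 CPM at 12 h, against 63.5, 61.1 and 62.6 CPM at 0 h (0.20 ± 0.11, adjusted p = 0.163). Of 15 genes of this pathway 4 rose and 8 fell (median -0.39), the falls including the receptor Acvr2b (-0.84 ± 0.13) and the repressors Skil (-1.34 ± 0.13) and Smad7 (-0.84 ± 0.21). Bmp4, a ligand that supports self-renewal in serum-free culture, was at 1.89, 2.08 and 2.24 CPM at 12 h, against 44.0, 49.2 and 47.0 CPM at 0 h (-4.49 ± 0.18, adjusted p = 8.06e-27), while Bmp7 rose (1.94 ± 0.29). The BMP target Id1 was at 76.4, 83.4 and 96.2 CPM at 12 h, against 93.6, 97.7 and 81.4 CPM at 0 h (-0.10 ± 0.15, adjusted p = 0.638), and Id4 rose (1.43 ± 0.26). Members with at most 3 reads in both groups are near absent, and where they alter a list's median both values are given. In the LIF pathway 8 of 15 genes fell and 2 rose (median -0.38, or -0.36 without near-absent members), with the receptor Lifr at 35.7, 39.4 and 41.3 CPM at 12 h, against 95.6, 93.4 and 95.1 CPM at 0 h (-1.29 ± 0.12) and the feedback inhibitor Socs3 at 103, 94.6 and 96.4 CPM at 12 h, against 129.8, 124 and 119.5 CPM at 0 h (-0.34 ± 0.07). Fgf4, the ligand of the ERK loop, was at 273, 295 and 270.0 CPM at 12 h, against 248, 245 and 263 CPM at 0 h (0.15 ± 0.07, adjusted p = 0.0935). Of 13 FGF ligands and receptors 2 rose and 3 fell (median -0.14), and the receptor Fgfr1 rose (0.38 ± 0.11).

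**Figure D4:**
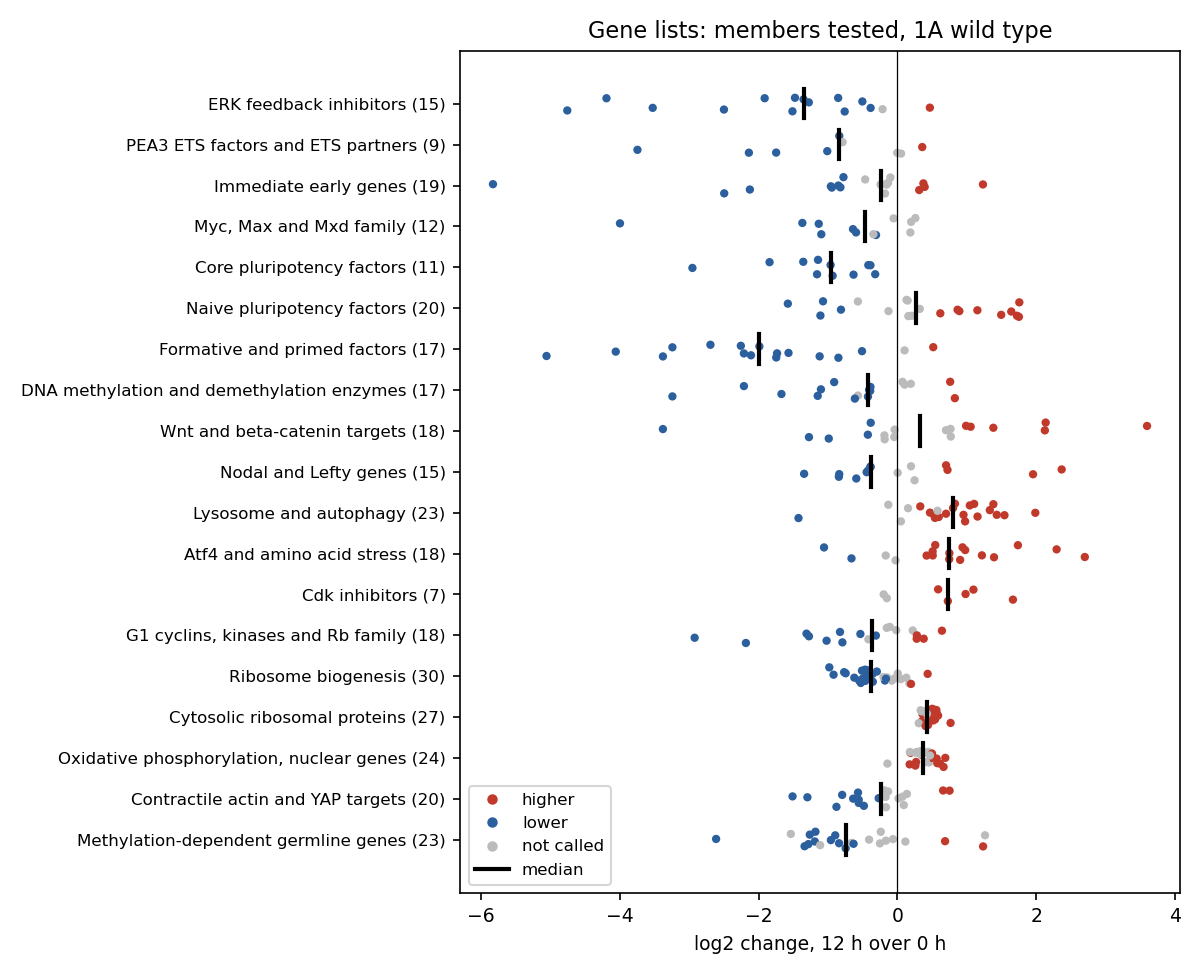
Each point is 1 tested member of a list, placed by its log2 change of 12 h over 0 h. Red members were called higher, blue lower and grey not called, the black bar is the list's median, and the number of members tested stands in brackets. The medians run from -1.99 for formative and primed factors to 0.80 for lysosome and autophagy genes.

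Most genes for enzymes that write or remove DNA methylation fell, and Dnmt3a and Dnmt3b stand both here and in the list of formative and primed factors. Dnmt3a (chr12:3851559-3964443), a de novo methyltransferase, was at 71.2, 71.3 and 78.5 CPM at 12 h, against 676, 700.0 and 713 CPM at 0 h (-3.24 ± 0.11, adjusted p = 2.43e-30). Dnmt3b, the other de novo enzyme, was at 224, 216 and 196 CPM at 12 h, against 930.5, 985 and 1029.9 CPM at 0 h (-2.21 ± 0.11, adjusted p = 1.56e-23). The cofactor Dnmt3l was at 319, 330.1 and 375 CPM at 12 h, against 1079, 1118 and 1062 CPM at 0 h (-1.67 ± 0.11). These 3 genes of de novo methylation had no overlap between times. The maintenance genes Dnmt1 (-0.41 ± 0.13) and Uhrf1 (-0.42 ± 0.12) fell by less, and the oxidising enzymes Tet1 (-1.15 ± 0.17) and Tet3 (-1.10 ± 0.19) by about 2-fold. Uhrf2 (0.83 ± 0.08) and Apobec1 (0.76 ± 0.17) rose. In all, 11 of 17 genes fell and 2 rose (median -0.42).

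Genes that depend on promoter methylation for their silencing in somatic cells fell more often than they rose. Of 23 germline genes 11 fell and 2 rose (median -0.74, or -0.79 without near-absent members). Tdrd1, of the piRNA pathway, was at 1.74, 1.601 and 1.42 CPM at 12 h, against 10.5, 7.68 and 12.0 CPM at 0 h (-2.61 ± 0.28), and Ddx4, the germ cell helicase Vasa, at 20.04, 25.3 and 24.6 CPM at 12 h, against 58.5, 57.8 and 60.3 CPM at 0 h (-1.34 ± 0.12). Sycp3 (0.69 ± 0.28) and Brdt (1.24 ± 0.42) rose, but both calls were lost without replicate 1 at 0 h and without replicate 1 at 12 h (highest adjusted p over all alternatives 0.18 for Sycp3 and 0.142 for Brdt). That of Sycp3 was lost in 12 of 16 alternatives. Of 33 imprinted genes 5 rose and 7 fell (median -0.03, or -0.09 without near-absent members), beside 20% higher and 20.8% lower over all genes tested. Plagl1, a zinc-finger factor of the imprinted network, was at 30.3, 27.7 and 32.3 CPM at 12 h, against 1.33, 2.78 and 1.78 CPM at 0 h (3.92 ± 0.22, adjusted p = 3.56e-21). Peg10 was at 222, 203 and 201 CPM at 12 h, against 479.8, 523 and 541 CPM at 0 h (-1.30 ± 0.14), and Magel2 at 0.316, 0.641 and 0.813 CPM at 12 h, against 3.70, 3.43 and 4.32 CPM at 0 h (-2.67 ± 0.46). None of 11 genes of the 2-cell-like state was called (median 0.32, or 1.08 without near-absent members). The list summed to 0.610 to 3.16 CPM at 12 h, against 0.509 to 1.48 CPM at 0 h. Several of its genes are near-identical copies, so reads cannot be assigned safely among them.

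Polycomb genes, which the knockouts of the study address, did not move one way. Ezh2, the methyltransferase of PRC2, was at 226, 207 and 212 CPM at 12 h, against 217, 208 and 194 CPM at 0 h (0.06 ± 0.07, adjusted p = 0.533), and Suz12 at 0.02 ± 0.11 (adjusted p = 0.906). Eed fell (-0.45 ± 0.10), at 254, 246 and 283 CPM at 12 h, against 384, 346 and 339 CPM at 0 h. Jarid2, which helps to bring PRC2 to chromatin, was at 276, 261 and 281 CPM at 12 h, against 998, 1022 and 1049.7 CPM at 0 h (-1.91 ± 0.12, adjusted p = 2.2e-19). The 3 Polycomb-like genes went apart: Phf19 fell (-1.73 ± 0.16), while Mtf2 (0.33 ± 0.07) and Phf1 (1.04 ± 0.22) rose. Kdm2b, which takes a PRC1 form to CpG islands, fell (-1.69 ± 0.17). Over 30 subunits of both complexes 7 rose and 12 fell (median -0.20).

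Among genes that set the pace of G1, all D-type cyclins fell and most Cdk inhibitors rose, while the kinases were split. Cdk2 (0.38) and Cdk4 (0.28) rose and Cdk6 (-0.53) fell. The call of Cdk4 was lost without replicate 3 at 12 h and with the length trend removed (highest adjusted p = 0.207). Ccnd2, a D-type cyclin, was at 6.31, 5.28 and 6.51 CPM at 12 h, against 43.4, 49.0 and 44.5 CPM at 0 h (-2.92 ± 0.14, adjusted p = 5.47e-23). Ccnd1 was at 129, 134 and 123 CPM at 12 h, against 295, 312 and 328 CPM at 0 h, and Ccnd3 at 139, 146 and 131 CPM at 12 h, against 223, 248 and 250.2 CPM at 0 h (-0.79 ± 0.08). Groups did not overlap in these 3 genes, and the E-type cyclin Ccne1 fell too (-1.02 ± 0.08). Among E2F factors E2f8 fell (-2.18 ± 0.20) and E2f1 rose (0.64 ± 0.10). Of 18 genes of this list 9 fell and 4 rose (median -0.36). Of 7 Cdk inhibitors 5 rose and none fell (median 0.73). Cdkn1a (chr17:29309953-29319696), the inhibitor p21, was at 81.1, 84.4 and 84.8 CPM at 12 h, against 27.5, 26.6 and 24.2 CPM at 0 h (1.67 ± 0.08, adjusted p = 2.15e-24), and Cdkn1b, p27, at 46.4, 49.0 and 55.5 CPM at 12 h, against 32.0, 28.7 and 30.01 CPM at 0 h (0.73 ± 0.09). Cdkn2c rose on few reads (1.10 ± 0.33), a call lost without replicate 2 at 0 h (log2 change 0.71, adjusted p = 0.113). The call of Cdkn2a (0.59) was lost in 4 of 16 alternatives (highest adjusted p = 0.0896). In S phase genes 4 of 20 rose and 6 fell (median 0.01), beside 20% higher and 20.8% lower over all genes tested. The number of S phase genes that fell was 3 without replicate 3 at 0 h. In mitosis genes 1 rose and 7 fell (median -0.13), Cdc20 by the most (-0.93 ± 0.08). Trp53, which encodes p53, fell, at 326, 302 and 294 CPM at 12 h, against 597, 609 and 591 CPM at 0 h (-0.96 ± 0.07). Of 19 genes of p53 and its targets 7 fell, among them Gadd45a (-1.48 ± 0.12) and Zmat3 (-1.11 ± 0.13), and 4 rose, p21 included (median -0.10). The count of those that rose was 2 without replicate 1 or without replicate 3 at 0 h.

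Targets of Atf4, the factor translated when amino acids run short or the endoplasmic reticulum is stressed, rose. Of 18 genes 14 rose and 2 fell (median 0.75). Asns (chr6:7675165-7693209), asparagine synthetase, was at 884, 953 and 962 CPM at 12 h, against 369, 369 and 327 CPM at 0 h (1.39 ± 0.08, adjusted p = 5.79e-21). Nupr1, a small stress-induced nuclear protein, was at 64.7, 60.2 and 68.3 CPM at 12 h, against 9.18, 12.4 and 7.37 CPM at 0 h (2.702 ± 0.20, adjusted p = 1.46e-16). Ddit3, the factor Chop, was at 43.4, 37.6 and 38.0 CPM at 12 h, against 10.1, 12.1 and 14.2 CPM at 0 h (1.74 ± 0.18). Groups did not overlap in any of them. Atf4 RNA was at 673, 645 and 653 CPM at 12 h, against 369.9, 344 and 338 CPM at 0 h (0.91 ± 0.08), and Trib3, a pseudokinase that restrains Atf4, at 139, 145 and 139.9 CPM at 12 h, against 54.8, 69.6 and 57.5 CPM at 0 h (1.22 ± 0.13). Vldlr, a lipoprotein receptor, rose (2.30 ± 0.29), with Chac1 (0.94 ± 0.12), Slc7a11 (0.75 ± 0.24) and Aars (0.42 ± 0.07). The members that fell were amino acid carriers, Slc7a3 (-1.06 ± 0.08) and Slc7a5 (-0.66 ± 0.11). Serine synthesis genes Psat1 (0.51 ± 0.06), Phgdh (0.71 ± 0.12) and Psph (0.92 ± 0.13) rose, whereas of 17 chaperone and unfolded protein genes 2 rose and 6 fell (median -0.13). With the length trend removed 10 of these fell (median -0.25). Xbp1, the factor of the unfolded protein response that is spliced on stress, fell (-1.01 ± 0.09).

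Promoters of these genes are shown for the amino acid response element that Atf4 binds with its partners, TGATGNAA on either strand. Of the 18 members 14 had 17 RefSeq promoters, and 7 of these promoters, of 7 genes, held the letters, against 3.97% of the promoters in the table. All 7 genes rose, beside 14 of the 18 members that rose with or without the letters. Each line gives the bases around 1 match, and capitals mark every match in it.
Asns, chr6:7693199-7693258, minus strand: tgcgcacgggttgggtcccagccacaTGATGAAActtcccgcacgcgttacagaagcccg
Nupr1, chr7:126625547-126625606, minus strand: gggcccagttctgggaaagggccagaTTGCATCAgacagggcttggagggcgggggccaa
Trib3, chr2:152344013-152344072, minus strand: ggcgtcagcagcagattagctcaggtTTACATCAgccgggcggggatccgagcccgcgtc
Vldlr, chr19:27216794-27216853, plus strand: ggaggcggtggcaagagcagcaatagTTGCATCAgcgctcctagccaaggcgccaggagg
Chac1, chr2:119351023-119351082, plus strand: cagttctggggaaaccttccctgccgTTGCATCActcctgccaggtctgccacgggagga
Slc7a11, chr3:50443646-50443705, minus strand: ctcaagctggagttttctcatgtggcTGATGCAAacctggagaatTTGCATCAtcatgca
Aars, chr8:111033704-111033763, plus strand: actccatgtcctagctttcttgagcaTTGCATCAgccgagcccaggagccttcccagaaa

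Of 23 lysosome and autophagy genes 18 rose and 1 fell (median 0.80, or 0.68 with the length trend removed). Hexa (chr9:59446574-59472392), a hexosaminidase subunit, was at 122, 116 and 121 CPM at 12 h, against 30.2, 28.9 and 31.3 CPM at 0 h (1.99 ± 0.12, adjusted p = 1.85e-19). Ctsl, a cysteine protease, was at 315, 313 and 345 CPM at 12 h, against 123, 127 and 109 CPM at 0 h (1.43 ± 0.09), and Ctsb, another, at 177, 182 and 181 CPM at 12 h, against 70.8, 73.8 and 69.7 CPM at 0 h (1.33 ± 0.06, adjusted p = 1.45e-23). The membrane protein Lamp2 was at 64.8, 66.0 and 67.7 CPM at 12 h, against 24.7, 20.7 and 22.4 CPM at 0 h (1.54 ± 0.10). Enzymes and membrane proteins thus rose together, as did the autophagy genes Map1lc3b (1.04 ± 0.12) and Sqstm1 (0.54 ± 0.07). The factors that can activate lysosomal genes did not move one way. Tfe3 was at 87.2, 76.4 and 74.2 CPM at 12 h, against 205, 209.7 and 226 CPM at 0 h (-1.42 ± 0.09), Mitf rose (1.11 ± 0.24) and Tfeb was at -0.13 ± 0.12 (adjusted p = 0.391).

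These factors bind the CLEAR element, whose core is TCACGTGA. Of the 23 members 17 had 22 RefSeq promoters, and 3 of these promoters, of 3 genes, held the core, against 0.974% of the promoters in the table. Ctsd (0.95 ± 0.10), Mcoln1 (0.70 ± 0.11) and Atp6v0d1 (0.83 ± 0.10) are the 3, and all rose, beside 18 of the 23 members. Capitals mark the core, which reads the same on both strands.
Ctsd, chr7:142387893-142387952, minus strand: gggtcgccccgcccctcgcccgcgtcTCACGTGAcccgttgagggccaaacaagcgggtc
Mcoln1, chr8:3500447-3500506, plus strand: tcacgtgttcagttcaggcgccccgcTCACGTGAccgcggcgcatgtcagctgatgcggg
Atp6v0d1, chr8:105566035-105566094, minus strand: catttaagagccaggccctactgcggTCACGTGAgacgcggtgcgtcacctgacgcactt

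Metabolic genes were rearranged within pathways. For glucose, Pdk1, a kinase that inhibits pyruvate dehydrogenase, was at 54.4, 51.4 and 48.8 CPM at 12 h, against 253, 240.1 and 245 CPM at 0 h (-2.25 ± 0.12, adjusted p = 1.46e-21). The lactate exporter Slc16a3 fell (-1.85 ± 0.17). The carriers went opposite ways, with Slc2a1 at 213, 219.6 and 203 CPM at 12 h, against 479, 509 and 492 CPM at 0 h (-1.22 ± 0.08) and Slc2a3 at 1468, 1516 and 1446 CPM at 12 h, against 678, 700.3 and 727 CPM at 0 h (1.07 ± 0.09). Likewise Ldha fell (-0.39 ± 0.09) and Ldhb rose (1.52 ± 0.11). Over 22 glucose genes 6 rose and 8 fell (median 0.01), and 3 rose without replicate 3 at 0 h or with the length trend removed. Of 24 nuclear genes of oxidative phosphorylation 13 rose and none fell (median 0.36), none by 2-fold. This list is short too, with 8 of 24 genes under 1 kb of exons, and with the exon-length trend removed its median was 0.15 with 11 members higher and 1 lower. Of the fatty acid genes Fabp3, a binding protein, was at 143, 132 and 147 CPM at 12 h, against 32.6, 30.9 and 30.5 CPM at 0 h (2.16 ± 0.19), and Cpt1a, which admits fatty acids to mitochondria for oxidation, at 73.2, 80.2 and 76.8 CPM at 12 h, against 23.8, 23.7 and 25.2 CPM at 0 h (1.67 ± 0.16). The synthesis genes Fasn (-0.62 ± 0.18) and Acaca (-0.50 ± 0.16) fell, Acaca not without replicate 3 at 0 h (adjusted p = 0.0823). The count over 15 such genes was 6 higher and 4 lower (median 0.37, or 0.11 with the length trend removed). Of 24 cholesterol genes 10 rose and 4 fell (median 0.22), with the isomerase Ebp at 1.18 ± 0.14. GSK3 takes its name from glycogen synthase, and in 14 glycogen genes 4 rose and 1 fell (median 0.13). Glycogenin, Gyg, which primes the glycogen chain, was at 11.7, 11.1 and 11.6 CPM at 12 h, against 6.37, 5.55 and 4.58 CPM at 0 h (1.02 ± 0.23), and Gys1, the synthase, fell (-0.33 ± 0.11). Of the genes for polyamines and one-carbon units 5 of 18 rose and 6 fell (median -0.03), beside 20% higher and 20.8% lower over all genes tested. Sat1, which breaks polyamines down, was at 1.63 ± 0.16, and the synthases Srm (-0.74 ± 0.08) and Sms (-0.81 ± 0.12) were lower.

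Actin genes and their partners fell more often than they rose. Of 20 genes of contractile actin and YAP targets 10 fell and 2 rose (median -0.23). Actb, cytoplasmic actin, was at 3105, 2917 and 2963 CPM at 12 h, against 4944, 5254 and 5397 CPM at 0 h (-0.80 ± 0.07, adjusted p = 1.59e-13). Zyx, of focal adhesions, was at 23.7, 24.5 and 22.2 CPM at 12 h, against 65.1, 68.3 and 67.6 CPM at 0 h (-1.51 ± 0.16), and Vcl, which links actin to adhesions, at 96.4, 96.7 and 84.2 CPM at 12 h, against 157, 176 and 178 CPM at 0 h (-0.88 ± 0.12). Actn4, an actin crosslinker, was at 523, 477 and 442 CPM at 12 h, against 1246, 1344 and 1360.0 CPM at 0 h (-1.45 ± 0.12). Acta2 rose (0.75 ± 0.15), and the YAP targets Ccn1 (-0.13 ± 0.09, adjusted p = 0.24) and Ccn2 (-0.16 ± 0.10, adjusted p = 0.186) were not called. Srf, the factor that binds the CArG box in many actin genes, fell (-0.94 ± 0.09). Of 18 genes of the epithelial and mesenchymal switch 6 fell and 1 rose (median -0.18, or -0.05 with the length trend removed). E-cadherin, Cdh1, was at 389, 385 and 353 CPM at 12 h, against 661, 693 and 705 CPM at 0 h (-0.87 ± 0.08).

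CArG boxes were searched by letters in the promoter windows. Of the 20 members 17 had 18 RefSeq promoters, and 5 of these promoters, of 5 genes, held a box, against 1.63% of the promoters in the table. Vcl, Myl9 (-0.48 ± 0.16), Cnn2 (-0.64 ± 0.12) and Actg1 (-0.27 ± 0.07) fell, and Acta1 was at -0.19 ± 0.24 (adjusted p = 0.549). Of all 20 members 10 fell. Capitals mark the box, which was searched on both strands.
Vcl, chr14:20929148-20929206, plus strand: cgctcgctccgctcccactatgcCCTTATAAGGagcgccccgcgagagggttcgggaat
Myl9, chr2:156775277-156775338, plus strand: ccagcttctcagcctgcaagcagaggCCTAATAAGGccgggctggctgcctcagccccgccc
Cnn2, chr10:79988518-79988579, plus strand: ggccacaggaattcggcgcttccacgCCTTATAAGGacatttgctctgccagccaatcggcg
Actg1, chr11:120348550-120348611, minus strand: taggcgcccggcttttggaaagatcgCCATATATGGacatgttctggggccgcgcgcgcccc
Acta1, chr8:123894813-123894874, minus strand: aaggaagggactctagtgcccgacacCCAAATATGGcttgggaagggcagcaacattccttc

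Genes of other lineages are given by count, beside 20% higher and 20.8% lower over all genes tested. For trophoblast 5 of 15 genes rose and 2 fell (median 0.11, or 0.12 without near-absent members), Gata2 (1.51 ± 0.16) and Tfap2c (1.05 ± 0.09) beside Cdx2, and Hand1 fell (-2.61 ± 0.49). Over the alternatives 3 to 6 of this list rose. The calls of Krt7 and Gata3 were lost in 7 and 3 of 16 alternatives. For primitive endoderm 6 of 16 fell and none rose (median -0.39, or -0.37 without near-absent members), among them Gata6 (-1.14 ± 0.34), at 0.947, 1.44 and 2.24 CPM at 12 h, against 3.997, 3.59 and 1.78 CPM at 0 h. The call of Gata6 was lost without replicate 1 at 0 h, without replicate 1 at 12 h and on the authors' RUV-normalized values (highest adjusted p = 0.085). For mesendoderm 1 of 11 rose and 4 fell (median 0.02). The organizer factor Gsc rose, at 1.58, 0.961 and 2.24 CPM at 12 h, against 0.296, 0 and 0 CPM at 0 h, and Evx1 fell, at 0, 0 and 0 CPM at 12 h, against 1.63, 2.29 and 0.254 CPM at 0 h. Reads of both were few. For neural progenitors 3 of 10 rose and 5 fell (median -0.24), with Pax6 at 4.10, 2.24 and 4.07 CPM at 12 h, against 8.14, 8.98 and 11.4 CPM at 0 h (-1.44 ± 0.25). Of 10 fibroblast genes 2 rose and 1 fell (median -0.37, or -0.39 without near-absent members). Interferon-stimulated genes had 2 of 19 higher and 7 lower (median -0.60). Their median was -0.53 without near-absent members and with members lacking reads at one time set against 3 reads. Notch pathway genes had 6 of 13 lower and none higher (median -0.43), with the DNA-binding factor Rbpj at -1.20 ± 0.08.

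Beyond the lists, some of the largest changes were those of genes known from other tissues. Trpm1 (chr7:63803583-63923630), a cation channel of the retina and of pigment cells, was at 12.0, 11.1 and 12.6 CPM at 12 h, against 0.444, 0.163 and 0 CPM at 0 h (5.52 ± 0.37, adjusted p = 9.4e-18). Ap3b2, the neuronal subunit of the AP-3 vesicle coat, was at 103, 105 and 119 CPM at 12 h, against 5.92, 5.39 and 3.81 CPM at 0 h (4.38 ± 0.14, adjusted p = 2.57e-31). S100a13, a calcium-binding protein, was at 57.6, 48.5 and 60.4 CPM at 12 h, against 2.52, 1.96 and 1.27 CPM at 0 h (4.77 ± 0.32). In all 3 genes the 0 h libraries held few reads. The rule that names them required groups without overlap. Myh13, a myosin of eye muscle, was at 23.2, 22.6 and 23.4 CPM at 12 h, against 1.48, 0.49 and 2.54 CPM at 0 h (4.05 ± 0.26), and Cyp1b1, a cytochrome P450 enzyme, at 13.3, 9.61 and 15.5 CPM at 12 h, against 0.888, 1.797 and 0.509 CPM at 0 h (3.46 ± 0.32). Ephx2, the soluble epoxide hydrolase, was at 62.8, 67.7 and 78.7 CPM at 12 h, against 8.29, 7.68 and 7.63 CPM at 0 h (3.13 ± 0.13). The carrier Slc16a9 (3.15 ± 0.23) and Patl2, an RNA-binding protein of oocytes (2.86 ± 0.17), complete the 10 rises that the rule names, with Cdx1 and Plagl1. Among the deepest falls, Myrf, a membrane-bound transcription factor first described in myelin, was at 10.6, 11.4 and 9.76 CPM at 12 h, against 160.3, 188 and 193 CPM at 0 h (-4.08 ± 0.14, adjusted p = 3.13e-29). Wt1, a zinc-finger factor of kidney and gonad, was at 1.42, 1.12 and 1.22 CPM at 12 h, against 23.1, 25.2 and 23.9 CPM at 0 h (-4.24 ± 0.22). The adhesion molecule Esam (-4.07 ± 0.35) fell as well.

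Abundant genes had the largest differences in CPM. Eef1a1, the elongation factor that brings tRNA to ribosomes, was at 9376, 9212 and 10042 CPM at 12 h, against 7142, 7049.8 and 7109.9 CPM at 0 h (0.43 ± 0.08). Ftl1, ferritin light chain, was at 3342, 3174 and 3283 CPM at 12 h, against 1585, 1605 and 1536 CPM at 0 h (1.05 ± 0.13, adjusted p = 2.04e-09). Apoe, a lipid carrier protein, was at 1658, 1588 and 1698 CPM at 12 h, against 584, 627 and 559 CPM at 0 h (1.48 ± 0.11, adjusted p = 1.33e-15). On the falling side, G3bp2, an RNA-binding protein of stress granules, was at 362, 352 and 356 CPM at 12 h, against 1142, 1146 and 1141 CPM at 0 h (-1.68 ± 0.06, adjusted p = 1.43e-28). Trim28, the corepressor of zinc-finger proteins that silences retroelements, was at 2123, 2239 and 2324 CPM at 12 h, against 3255, 3536 and 3432 CPM at 0 h (-0.61 ± 0.08). Pabpc1 (-0.41 ± 0.06) and Hsp90ab1 (-0.21 ± 0.06) fell by little, and the call of Hsp90ab1 was lost without the filter on low counts (adjusted p = 0.0879) and on the authors' RUV-normalized values (adjusted p = 0.0785). Eef1a1, Ftl1, Actb and Hsp90ab1 have near-identical copies that can share reads.

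Levels at later times show which early values were kept in 1A wild type. They are given as mean ± SD of 3 libraries, and changes between the later times were not tested here. Spry4 was at 222 ± 10.7 CPM at 0 h, 8.09 ± 1.81 CPM at 12 h, 7.62 ± 1.75 CPM at 24 h, 1.96 ± 0.71 CPM at 48 h and 20.04 ± 2.64 CPM at 96 h. Myc was at 169 ± 4.26 CPM at 0 h, 10.6 ± 1.66 CPM at 12 h, 9.48 ± 1.01 CPM at 24 h, 7.05 ± 1.18 CPM at 48 h and 17.4 ± 2.08 CPM at 96 h. Both stayed low at all 4 times in 2i. Etv5 was at 267 ± 22.4 CPM at 0 h, 133 ± 0.335 CPM at 12 h, 156 ± 25.8 CPM at 24 h, 185 ± 2.94 CPM at 48 h and 279 ± 19.6 CPM at 96 h, so its level at 96 h was near that of 0 h. Foxd3 was at 89.3 ± 6.14 CPM at 0 h, 13.8 ± 1.42 CPM at 12 h, 40.5 ± 1.47 CPM at 24 h, 67.9 ± 4.92 CPM at 48 h and 92.1 ± 3.10 CPM at 96 h, and G3bp2 at 1143 ± 2.75 CPM at 0 h, 357 ± 5.31 CPM at 12 h, 486 ± 30.7 CPM at 24 h, 588 ± 4.43 CPM at 48 h and 928 ± 3.89 CPM at 96 h, which also came back towards the level of 0 h. Some rises peaked early. Lefty1 was at 38.8 ± 1.04 CPM at 0 h, 199.98 ± 5.85 CPM at 12 h, 76.2 ± 8.60 CPM at 24 h, 21.1 ± 4.87 CPM at 48 h and 6.61 ± 1.11 CPM at 96 h. Ap3b2 was at 5.04 ± 1.10 CPM at 0 h, 109 ± 8.69 CPM at 12 h, 51.0 ± 4.20 CPM at 24 h, 36.7 ± 3.38 CPM at 48 h and 5.94 ± 1.07 CPM at 96 h, and Ddit3 at 12.1 ± 2.09 CPM at 0 h, 39.7 ± 3.22 CPM at 12 h, 21.4 ± 1.71 CPM at 24 h, 11.7 ± 3.70 CPM at 48 h and 10.8 ± 0.648 CPM at 96 h. For these genes the 12 h mean was the highest of the series. In others it was an intermediate point. Nanog was at 226 ± 2.59 CPM at 0 h, 745 ± 18.4 CPM at 12 h, 947 ± 54.6 CPM at 24 h, 1219 ± 88.1 CPM at 48 h and 955 ± 68.5 CPM at 96 h. Prdm14 was at 6.98 ± 0.828 CPM at 0 h, 23.6 ± 2.85 CPM at 12 h, 33.6 ± 2.60 CPM at 24 h, 66.6 ± 4.90 CPM at 48 h and 60.3 ± 3.70 CPM at 96 h, and Cpt1a at 24.2 ± 0.821 CPM at 0 h, 76.8 ± 3.51 CPM at 12 h, 105 ± 28.0 CPM at 24 h, 120.4 ± 6.99 CPM at 48 h and 116 ± 6.06 CPM at 96 h. Dppa3, high at 12 h, was low at the end, at 54.1 ± 9.12 CPM at 0 h, 153 ± 8.64 CPM at 12 h, 172 ± 49.1 CPM at 24 h, 138 ± 12.7 CPM at 48 h and 13.1 ± 1.62 CPM at 96 h.

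V19 gave the same comparison in another wild-type line, with its own 12 h and 0 h libraries. In V19 6378 genes (42.3%) were called at 12 h. Of the genes called in 1A, 4891 (79.6%) were also called in V19, which is 76.7% of those called in V19, and 4889 of them moved in the same direction. Across 15083 genes the log2 changes of the lines correlated with r = 0.758 (Spearman's rho = 0.788), a description over genes, which are not independent replicates. The difference of response, 1A minus V19, was tested as an interaction term and called for 18 genes (0.119%), 10 higher (0.0663%) and 8 lower (0.0530%), while 848 genes had an unadjusted p under 0.05. Of the 1724 genes called with at least 2-fold in 1A, 1676 had the same sign in V19, 1392 were called in the same direction and 8 differed between the lines by the test.

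**Figure D5:**
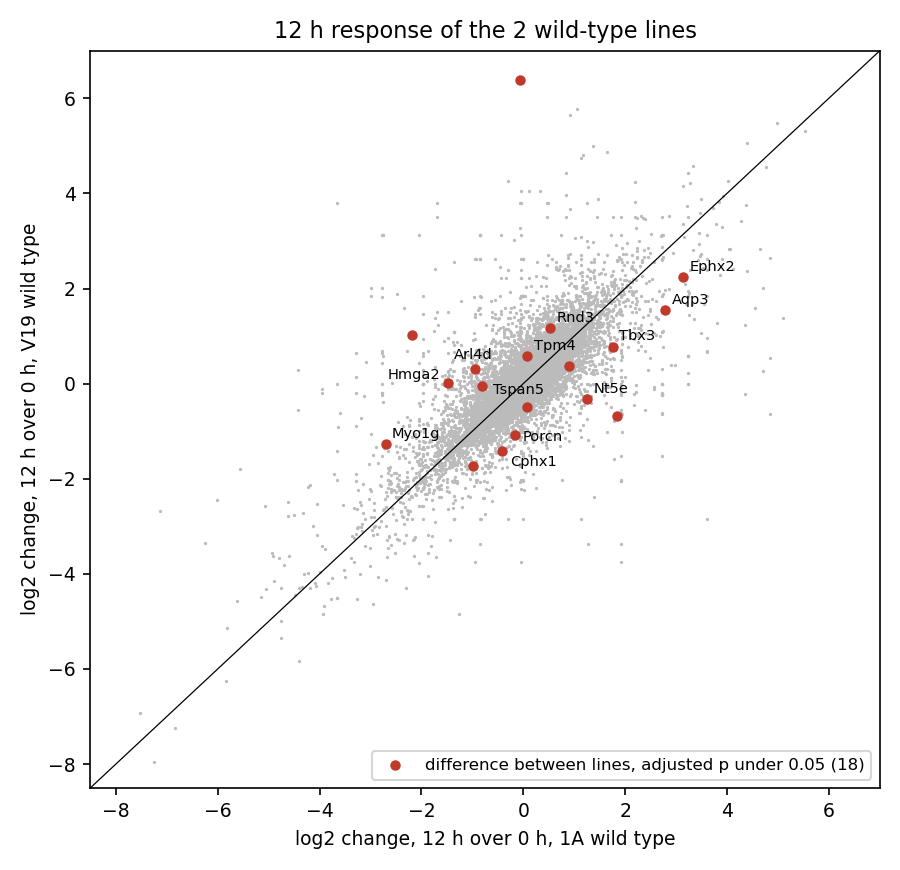
Each point is 1 gene, placed by its log2 change of 12 h over 0 h in 1A (horizontal axis) and in V19 (vertical axis), with the line of equal change. Red points are the 18 genes whose change differed between lines at an adjusted p under 0.05, of which the 12 that the rule names are labelled. Most genes lie along the line (r = 0.758), and Aqp3 (2.79 in 1A and 1.55 in V19) lies below it.

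In 4 of the named genes the difference between lines was called in each of the 12 refits that left out 1 library. Aqp3 (chr4:41092724-41098183), a channel for water and glycerol, was at 84.3, 102 and 88.6 CPM at 12 h, against 9.47, 15.7 and 15.3 CPM at 0 h in 1A, and at 95.4, 107 and 108 CPM at 12 h, against 35.1, 35.7 and 35.3 CPM at 0 h in V19. The difference was 1.25 ± 0.14 (adjusted p = 1.4e-07), and the 0 h level was the higher one in V19. Tbx3, the naive factor, was at 101, 106 and 101 CPM at 12 h, against 28.6, 31.5 and 31.5 CPM at 0 h in 1A, and at 133, 137 and 131 CPM at 12 h, against 80.8, 71.5 and 81.3 CPM at 0 h in V19. This was a difference of 0.98 ± 0.15 (adjusted p = 0.00044), with the higher 0 h level again in V19. Porcn, which acylates Wnt proteins so that they can be secreted, was at 27.6, 28.5 and 29.9 CPM at 12 h, against 29.5, 32.3 and 35.3 CPM at 0 h in 1A, and at 34.5, 28.3 and 30.7 CPM at 12 h, against 61.3, 69.5 and 66.4 CPM at 0 h in V19. It fell in V19 (-1.08 ± 0.11) and was not called in 1A (-0.17 ± 0.12), a difference of 0.91 ± 0.16 (adjusted p = 0.00277). Nt5e, the ectoenzyme CD73, was at 9.15, 9.13 and 11.4 CPM at 12 h, against 3.997, 5.23 and 2.54 CPM at 0 h in 1A, and at 5.10, 4.06 and 4.77 CPM at 12 h, against 6.02, 5.53 and 5.96 CPM at 0 h in V19. The difference of Nt5e was 1.59 ± 0.29 (adjusted p = 0.00485). Over the 44 gene lists, 1 member had a called difference, Tbx3. The list medians were -1.35 in 1A and -1.14 in V19 for feedback inhibitors, and -1.99 in 1A and -2.23 in V19 for formative and primed factors. They were 0.75 in 1A and 0.87 in V19 for Atf4 targets, and 0.80 in 1A and 0.69 in V19 for lysosomal genes.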

How the data were processed

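Per the submitters' processing notes, reads were aligned with STAR 2.7.10b to GRCm39 (mm39) and counted with featureCounts 2.0.3, with MultiQC 1.14 and DESeq2 also named. The strand setting of counting is not given in the sources used here, so a gene and an antisense partner cannot be told apart. The deposited counts are raw whole-number read counts per gene, made by the authors from libraries merged over both flowcells, per the labels. The deposited RUV-normalized values are a score here: counts that the authors adjusted for unwanted variation and rounded, used only as an alternative. The deposited table of transformed values was not used.

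The counts were fitted with edgeR 4.0.16 in R 4.3.3 (TMM factors, filterByExpr with a minimum count of 10 and total of 15, quasi-likelihood test). The model held 60 libraries in 20 groups with 40 residual degrees of freedom, and 15083 of 50559 genes were tested. Standard errors are the log2 change divided by the square root of the F statistic. CPM use TMM-scaled library sizes, and precision follows depth, with intervals and errors covering these samples only. Alternatives used DESeq2 1.42.0, limma 3.58.1 (pseudocounts 1 and 5), other scalings and filters, a replicate block and libraries left out, and scripts were tested on simulated data. Figures were drawn with matplotlib 3.10.9.

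The libraries compared and all 44 gene lists were chosen with earlier results of these data known. Named genes are the 10 per direction with the largest called log2 change and the 8 with the largest CPM difference (mean of at least 5 CPM, groups without overlap, predicted genes left out), up to 4 members of each list by adjusted p, the 4 inhibited kinases and 4 pluripotency markers, and up to 6 per direction for 1A against V19. Some genes that the rule names are not reported here. Other list members are named with their values, chosen after these were seen. RefSeq promoters on GRCm38.p6 were matched by symbol, 11427 of 15083 tested genes (75.8%).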

Additional observations from a re-analysis of the deposited data

Results flagged for a closer look

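Of the 18 genes whose change over the first 12 h differed between 1A and V19, the rule names 12, and the difference itself was tested as the interaction term of the edgeR model (adjusted p under 0.05). Differences are log2 changes of 1A minus V19 ± standard error, and no explanation of them was tested. In 4 genes the call held whichever of the 12 libraries was left out. These were Nt5e with 1.59 ± 0.29 (adjusted p = 0.00485, at most 0.0333), Aqp3 with 1.25 ± 0.14 (adjusted p = 1.4e-07, at most 1.08e-05), Tbx3 with 0.98 ± 0.15 (adjusted p = 0.00044, at most 0.00795) and Porcn with 0.91 ± 0.16 (adjusted p = 0.00277, at most 0.0279). Their levels are given above.

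The other 8 calls depended on single libraries. Ephx2, which rose in both lines, differed by 0.90 ± 0.18 (adjusted p = 0.0148), and 5 of 12 omissions ended the call, with the highest adjusted p of 0.104 without V19 0 h replicate 3. It was at 62.8, 67.7 and 78.7 CPM at 12 h, against 8.29, 7.68 and 7.63 CPM at 0 h in 1A, and at 67.3, 64.7 and 73.2 CPM at 12 h, against 14.8, 12.5 and 16.2 CPM at 0 h in V19. Cphx1, a homeobox gene of the early embryo, differed by 1.00 ± 0.22 (adjusted p = 0.0405), a call that 9 of 12 omissions ended (adjusted p = 0.22 without V19 12 h replicate 1). The RNA was at 14.8, 13.6 and 15.2 CPM at 12 h, against 17.8, 22.2 and 18.1 CPM at 0 h in 1A, and at 5.27, 8.29 and 7.29 CPM at 12 h, against 20.2, 15.99 and 19.6 CPM at 0 h in V19. Hmga2, a chromatin protein of growing cells, differed by -1.49 ± 0.32 (adjusted p = 0.0233), which 7 omissions ended (adjusted p = 0.133 without 1A 12 h replicate 2). Hmga2 was at 5.36, 3.20 and 3.86 CPM at 12 h, against 11.1, 13.2 and 10.2 CPM at 0 h in 1A, and at 7.99, 4.74 and 6.87 CPM at 12 h, against 6.18, 4.304 and 9.15 CPM at 0 h in V19. Myo1g, an unconventional myosin, differed by -1.42 ± 0.30 (adjusted p = 0.0233), which 9 omissions ended (adjusted p = 0.106 without 1A 12 h replicate 3). Arl4d, a small GTPase, differed by -1.25 ± 0.25 (adjusted p = 0.0148), which 3 omissions ended (adjusted p = 0.0757 without V19 12 h replicate 3).

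The smaller differences were lower in 1A. They were those of the membrane protein Tspan5 with -0.75 ± 0.16 (adjusted p = 0.0273, ended by 8 omissions, 0.115 without 1A 0 h replicate 1), the GTPase Rnd3 with -0.65 ± 0.14 (adjusted p = 0.0233, ended by 7, 0.108 without 1A 0 h replicate 1) and the tropomyosin Tpm4 with -0.50 ± 0.11 (adjusted p = 0.0233, ended by 10, 0.115 without 1A 0 h replicate 1). Tpm4 was at 133, 131 and 132 CPM at 12 h, against 132, 123 and 119 CPM at 0 h in 1A, and at 133, 138 and 138 CPM at 12 h, against 89.6, 96.1 and 87.9 CPM at 0 h in V19.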

How the results depend on the processing

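The counts of genes called in 1A at 12 h stayed within 1.5 times of the reported ones under all alternatives. Called higher ranged from 2692 (no filter) to 3656 (the 6 libraries fitted alone) and called lower from 2670 (library totals alone) to 3712 (the 6 libraries fitted alone), apart from omissions of 1 library, which gave 2480 to 2626 higher and 2761 to 2872 lower, and 715 to 746 and 901 to 964 with at least 2-fold. No pairing by replicate number was seen, as deviations of same-numbered 1A libraries correlated at -0.03 to 0.00. So few libraries cannot exclude a shared day, and the labels do not say whether a number marks one. The fit with the replicate block gave 3004 higher and 3121 lower. The exon-length alternative, chosen after seeing the data, gave 2981 higher and 3343 lower. Of the named genes no 12 h change reversed. Calls were lost for Cdkn2c, Fbn1, Ugp2 and Hsp90ab1, among others, for Slc7a11 (adjusted p = 0.094) and Myl9 (0.0995), for Dnmt1 with library totals alone (0.0509), and gained for Gsk3a, Map2k2 and Zfp42, each under some settings. Fbn1 had adjusted p = 0.0669 without replicate 2 at 0 h and 0.0606 without replicate 1 at 12 h, and Ugp2 0.0581 without replicate 2 at 0 h. The median of the Wnt targets reversed to -0.044 with the 6 libraries fitted alone, where fewer genes, 12696 and 16 of the list, were tested. Counts of called list members moved by over 1.5 times for several lists, among them ribosomal proteins (8 to 27 higher), S phase genes (2 lower with library totals alone or no filter) and genes of oxidative phosphorylation (23 higher with the 6 libraries fitted alone). List medians moved too, by more than the SD of the list's median over the 3 libraries at 12 h. With the length trend removed 22 of 44 did so, with library totals alone 16, and without replicate 1 at 0 h 16. They ran over -0.90 to -0.18 for interferon-stimulated genes, -0.65 to -0.04 for neural progenitors and -0.34 to 0.18 for mesendoderm, whose sign thus turned. The sign also turned for glucose (-0.02 to 0.06), polyamine and one-carbon (-0.06 to 0.04) and S phase genes (-0.01 to 0.06).

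The 18 differences between 1A and V19 were less stable. Genes called higher were 6 with no filter, 16 with the 12 libraries fitted alone and 19 with the length trend removed. Genes called lower were 17 with the 12 libraries alone, 16 with DESeq2, 13 on RUV-normalized values and 19 with the length trend removed, and with at least 2-fold 9, 11 and 10 under the last 3 of these. Leaving out 1 library gave 5 to 10 higher and 1 to 6 lower, and with at least 2-fold 2 to 4 and 1 to 4, the fewest without replicate 3 of 1A at 12 h (5 higher and 1 lower). The replicate block gave 8 higher and 8 lower. The cause was not tested. Depth limits calls among genes under 1 CPM, where the median standard error was 0.75.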
